A study of Danio rerio with 12 samples.

Results

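Zebrafish carry a tandem pair of long wavelength-sensitive opsin genes, lws1 and lws2, and an adult LWS cone expresses mainly one of them. The RNA of cones that report lws2 (LWS2 cones, RFP+) was compared with that of cones that report lws1 (LWS1 cones, GFP+), 3 libraries of each, which are 6 of the 12 libraries of the series. Both populations came from adult retinas of one transgenic line, lws:PAC(H), labelled WT in genotype. Its PAC clone spans the lws locus and carries RFP (dsRedExpress) behind the lws2 promoter and GFP behind the lws1 promoter. Fish were dark-adapted and collected near light onset, retinas were dissociated with enzymes, and cells were sorted on fluorescence. RNA was taken up in TRIzol LS or a Machery-Nagel kit, without a statement of which library used which, and libraries were made after poly-A selection. The cone type and the fluorescent protein expressed cannot be told apart in this design, because every LWS2 library holds RFP+ cells and every LWS1 library GFP+ cells. Nothing in the labels says how many fish went into a library or whether the replicates were separate sorts, so p-values measure the spread between these libraries, which may in part be technical.

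A cone converts light into a graded synaptic signal through transducin, a cGMP phosphodiesterase and cyclic nucleotide-gated channels, and recovers through arrestin, opsin kinases and calcium-dependent activation of guanylate cyclase. It spends large amounts of ATP, which comes from glycolysis and from mitochondria packed below the outer segment. Like other neurons, it handles damaged protein through ubiquitin, the p97 ATPase, the proteasome and autophagy, and answers oxidative or proteotoxic stress by inducing thioredoxins, ferritins and transcription factors such as Ddit3 and Atf5. Cell dissociation is itself known to induce immediate-early genes such as jun.

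Of 8432 features tested with edgeR, 152 were called differentially expressed, with a Benjamini-Hochberg adjusted p (FDR) below 0.05 and more than a 2-fold difference. Higher in LWS2 cones were 101, or 1.2% of those tested, and 51, or 0.605%, were lower. Opsins and proteasome subunits accounted for 26 of the 101 (25 proteasome subunits and 1 opsin) and for 2 of the 51 (both opsins). The other 124 features, 75 higher and 49 lower in LWS2 cones, are the subject here. The 75 had a median log2 fold change, LWS2 over LWS1, of 3.34 (2.60 when genes without a count in LWS1 cones were set to their lower bound), while the 49 had a median of -1.43 and the median of all features tested was -0.02. Of the 75, 26 had at most 3 counts in every LWS1 library, while 3 of the 49 had as few in every LWS2 library. LWS1 libraries were also shallower, so the sizes of the medians of the 75 and the 49 are not comparable. For all 75, each LWS2 library lay above each LWS1 library, as it did for 13.5% of the features tested, and for all 49 each LWS2 library lay below, as for 7.84%. The calls were made from these same values, so the lack of overlap, here and for single genes below, adds no support to them.

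How many features were called depended on which libraries were in the fit. Without LWS2 replicate 1, 2 or 3 there were 6, 25 and 1 features higher and 1, 7 and 0 lower in LWS2 cones. Without LWS1 replicate 1, 2 or 3 there were 48, 54 and 68 higher and 76, 36 and 32 lower. syt4 was the one feature that was called in all 6 of these fits, and 52 of the 124 were called in at least 3 of them. The direction of each of the 124 was the same in each of the 13 alternative fits that tested it. None of them overlapped between the groups, so refits of the same counts could hardly have reversed a sign. The shared direction therefore adds no support to the calls. For 28 of them, leaving out 1 library moved the fold by more than 1.5 times, and for those given below with a fitted log2 fold change the value without that library stands beside it.

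**Figure D1:**
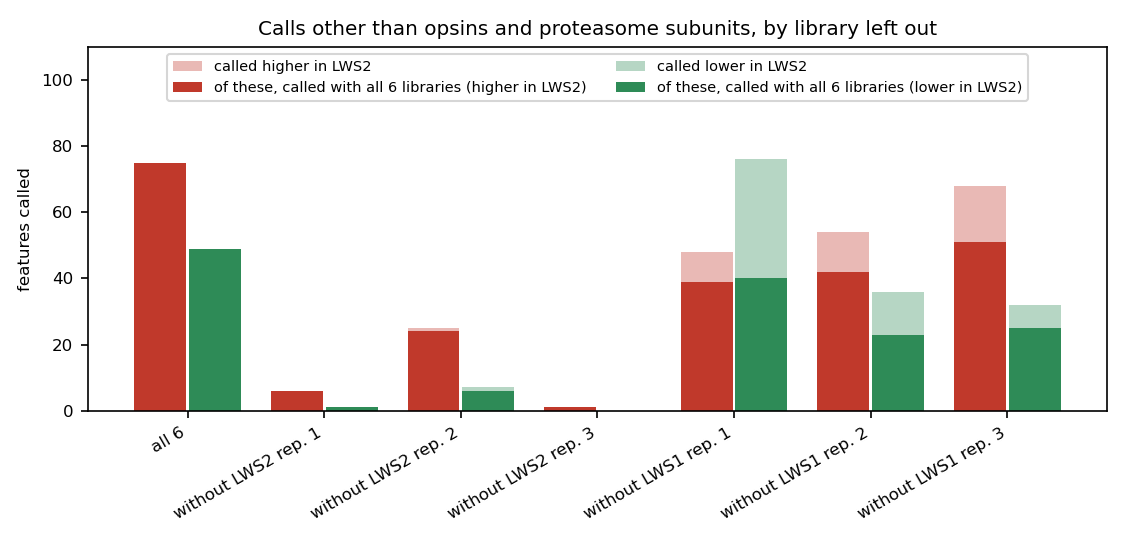
Number of features, other than opsins and proteasome subunits, called higher (red) and lower (green) in LWS2 cones with all 6 libraries and with each library left out; the dark part of a bar counts features also called with all 6. Without LWS2 replicate 3, 1 feature was called higher and 0 lower, against 75 and 49 with all 6 libraries.

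Total counts were 2092699, 3005880 and 3105062 in the LWS2 libraries and 1417028, 1117521 and 694158 in the LWS1 libraries, so that 3 counts, taken as the floor of detection, correspond to 0.832 to 1.34 CPM (counts divided by the scaled library total) in LWS2 libraries and 2.09 to 5.64 CPM in LWS1 libraries. The cone label held, with GNAT2 (cone transducin alpha) at 10145 to 11431 CPM in LWS2 and 11281 to 16364 CPM in LWS1 libraries, and thrb, the thyroid hormone receptor that marks LWS cones, at 1255 to 1357 and 1103 to 1709 CPM. The lws opsins differed in the direction of the sort, but each was also present in the other group. opn1lw1 (ENSDARG00000044862) had 6639, 3261 and 4992 CPM in LWS2 libraries and 16016, 20502 and 22997 CPM in LWS1 libraries. opn1lw2 (ENSDARG00000044861) reached 8808 CPM in LWS1 replicate 3, against 10562 to 12984 CPM in LWS2 libraries. The paper did not detect opn1lw1 as differentially expressed, by RNA-Seq or by qPCR of a further sort. Summed over 20 rod markers, LWS2 libraries held 2907 to 5120 CPM and LWS1 libraries 3864 to 7863 CPM, and over 22 Muller glia markers (2 without a count) 1320 to 2566 and 2253 to 3900 CPM. The 6 opsins of the other cone types summed to 6206 to 6433 CPM in LWS2 and 3337 to 6435 CPM in LWS1 libraries, and 40 markers of inner retinal neurons to 222 to 460 and 262 to 598 CPM. A list of 31 markers of pigment epithelium, blood, microglia and vessels summed to 14310 to 19051 CPM in LWS2 and 15293 to 24724 CPM in LWS1 libraries, nearly all of it rbp4l, and RPE65 averaged 12.4 ± 8.50 and 26.2 ± 9.51 CPM (SD, n = 3 each). A sum that rests on rbp4l does not measure those cell types as a set. The paper's short list of transcripts enriched in LWS2 cones holds a retinoid-binding gene of nearly the same printed name. The sum given here overlapped between the groups and had its highest value in an LWS1 library. It covers the whole list, values of rbp4l by itself are not given, and so it is no test of the paper's entry. None of these marker lists had a called member with all 6 libraries in edgeR's test as described. With the replicate block, and without the filter on low counts, 2 opsins of other cones were called higher, and 1 Muller glia marker was called lower with DESeq2, with its size factors within edgeR and without LWS1 replicate 1. Without the filter, 1 marker of the pigment epithelium, blood, microglia and vessel list was also called lower. The sum of the opsins hides the green opsin opn1mw1, which had 321, 26.0 and 264 CPM in LWS2 libraries and 28.5, 6.61 and 58.3 CPM in LWS1 libraries (log2 fold change 2.80, edgeR FDR = 0.17), with an overlap at LWS2 replicate 2. The more abundant green opsin opn1mw2 had 3570, 1927 and 3348 CPM in LWS2 libraries. In LWS1 libraries it had 1847, 914 and 1660 CPM, without overlap. The UV opsin opn1sw1 and the blue opsin opn1sw2 overlapped between the groups. At an unadjusted p under 0.05, 3 of 19 rod and 3 of 17 Muller glia markers tested were lower in LWS2 libraries and 2 of the 6 other-cone opsins were higher. Over all 8432 features tested, 606 were higher and 622 lower at that p, which is the background for each such count below. In bulk samples of this kind, fewer cells of a type and less RNA per cell cannot be told apart.

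**Figure D2:**
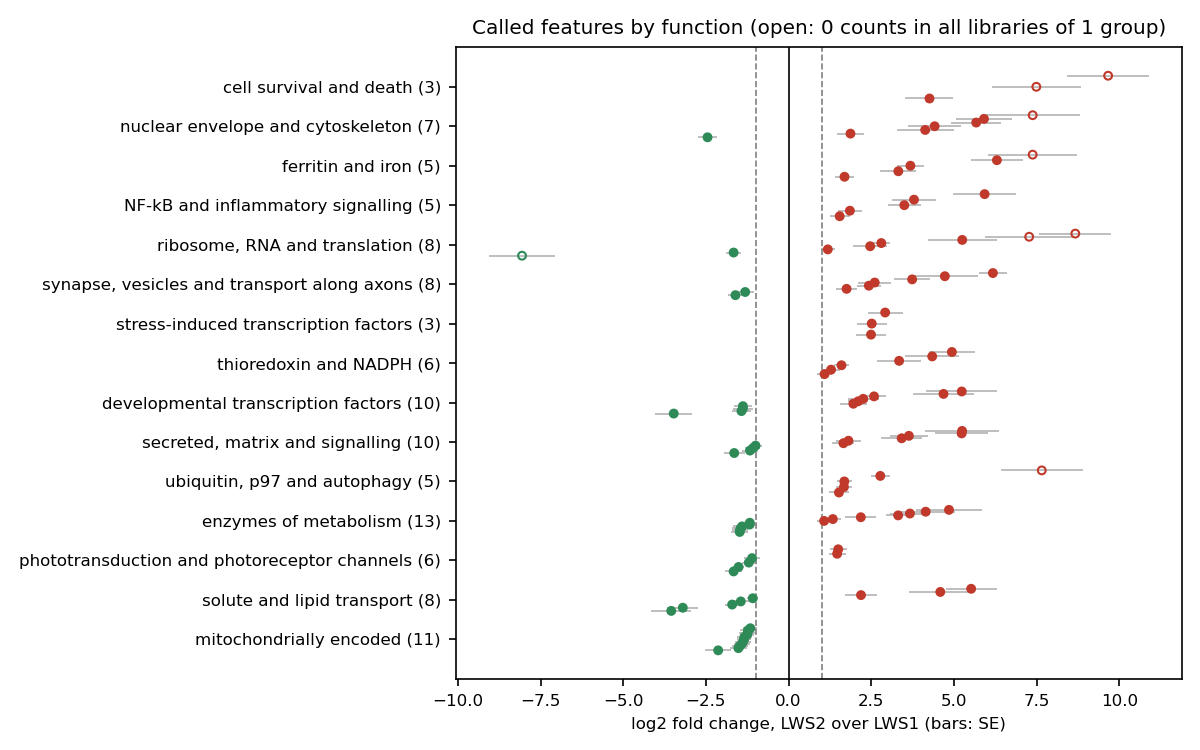
Log2 fold change (LWS2 over LWS1, bars are SE) of the called features that could be grouped by function, with the number of features in each group; red is higher and green lower in LWS2 cones, open symbols have no count in any library of 1 group, and dashed lines mark the fold-change threshold. The 11 mitochondrially encoded features lie between -2.13 and -1.16, and the 5 in ferritin and iron between 1.69 and 7.38.

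By name, 108 of the 124 features could be placed in a functional group. The groups with members higher in LWS2 cones alone were thioredoxin and NADPH, ferritin and iron, ubiquitin and p97, NF-kB signalling, stress-induced transcription factors, and cell survival and death. The mitochondrially encoded group was the one with members lower in LWS2 cones alone. Phototransduction, developmental transcription factors, metabolic enzymes, transporters and synaptic genes had members in both directions. These groups were formed after the names of the called features were seen and carry no test. For each count of calls in a list below, the background is the share over all 8432 features tested, opsins and proteasome subunits included. It was 1.2% called higher and 0.605% called lower in LWS2 cones, and a list with a single call is not read as differing from it.

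In a list of 55 tested features of ubiquitin, p97 and autophagy outside the proteasome, 5 were called higher in LWS2 cones and 0 lower. sqstm1, which encodes the p62 receptor that brings ubiquitinated cargo to autophagosomes, had 230, 137 and 232 CPM in LWS2 replicates 1 to 3 and 30.6, 29.7 and 26.3 CPM in LWS1 replicates. All LWS2 libraries were thus several times above the LWS1 libraries, which were close to each other, and the log2 fold change came to 2.77 (SE 0.288, edgeR FDR = 0.00363). Leaving out each library in turn kept the call in 5 of 6 fits. ufd1l and nsfl1c (p47) encode adaptors through which the p97 ATPase engages its substrates. ufd1l had 240, 230 and 277 CPM in LWS2 libraries and 61.9, 82.6 and 90.3 CPM in LWS1 libraries (log2 fold change 1.69, SE 0.225, edgeR FDR = 0.00912). nsfl1c had 149, 118 and 130 CPM in LWS2 libraries and 45.2, 41.9 and 35.8 CPM in LWS1 libraries (log2 fold change 1.67, SE 0.244, edgeR FDR = 0.0109). In neither gene did the groups overlap. The gene of p97 itself, vcp, is named here after its value was seen: its log2 fold change was 1.55 and it was not called (edgeR FDR = 0.11).

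ube2v1, a catalytically inactive partner of a ubiquitin-conjugating enzyme in the building of ubiquitin chains, had 223, 162 and 173 CPM in LWS2 libraries and 56.3, 92.5 and 43.3 CPM in LWS1 libraries (log2 fold change 1.52, edgeR FDR = 0.036). The remaining call of the list, tbk1, is given below with the NF-kB genes. Outside the list, the feature LOC100006889, named as an RBBP6-like ubiquitin ligase, had 13.4, 11.1 and 12.8 CPM in LWS2 libraries and no count in any LWS1 library. That makes it at least 3.37-fold higher when 3 counts per library are taken as the floor. Of the 55, 36 had a positive log2 fold change and 19 a negative one, and the median was 0.41. At an unadjusted p under 0.05, 21 were higher and 1 was lower in LWS2 cones. Proteasome subunits took 0.828% to 0.899% of the counts of LWS2 libraries and 0.202% to 0.293% of those of LWS1 libraries. In a fit without these subunits the list again had 5 calls, and its median was 0.42.

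In the list of thioredoxin, glutathione and NADPH genes, 4 of 38 tested features were called higher in LWS2 cones and 0 lower. Thioredoxin reduces disulphides in oxidised proteins and supplies peroxiredoxins, and thioredoxin reductase recharges it with NADPH. The files list txn (ENSDARG00000044125), with 123, 87.8 and 116 CPM in LWS2 libraries and 7.65, 0 and 0 CPM in LWS1 libraries, where it rested on 11, 0 and 0 counts. Its log2 fold change came to 4.94 (SE 0.695, edgeR FDR = 0.0104). All LWS1 counts of txn were in replicate 1, so the value without that library has no LWS1 count to rest on, and without LWS1 replicate 2 it was 4.38. A second feature, zgc:56493, which the Ensembl name table also calls thioredoxin, had 347, 373 and 361 CPM in LWS2 libraries and 131, 88.1 and 139 CPM in LWS1 libraries (log2 fold change 1.60, SE 0.218, edgeR FDR = 0.00965). For both features the groups lay far apart, and the LWS2 values of zgc:56493, which is outside the list, were within a narrow range.

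txnrd3, a thioredoxin reductase, had 99.0, 87.0 and 104 CPM in LWS2 libraries and 38.9, 30.8 and 50.8 CPM in LWS1 libraries (log2 fold change 1.28, edgeR FDR = 0.0495, close to the threshold). Peroxiredoxin 1, prdx1, had 16.9, 16.9 and 11.9 CPM in LWS2 and 0.695, 2.2 and 1.88 CPM in LWS1 libraries, where it rested on 1, 2 and 1 counts (log2 fold change 3.34, edgeR FDR = 0.0421). The cytosolic malic enzyme me1, which makes NADPH, rested on 3 counts over the LWS1 libraries and was 20.1-fold higher in LWS2 cones as a ratio of pooled counts (95% exact interval 6.76 to 98.1, for counting error only). selenot2, a selenoprotein of the thioredoxin fold and also outside the list, had a log2 fold change of 1.09. The list of 38 had a median of 0.31, with 22 positive and 16 negative values, and 11 were higher and 3 lower at an unadjusted p under 0.05. A prdx1 paralog feature named PRDX1 (ENSDARG00000025350) had a log2 fold change of -0.16 (edgeR FDR = 0.77).

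Ferritin is a shell of heavy and light chains that stores iron, with the ferroxidase site on the heavy chain. fthl31 had 161, 86.1 and 163 CPM in LWS2 libraries and 14.6, 7.71 and 7.53 CPM in LWS1 libraries, a difference of 3.68 on the log2 scale (SE 0.4, edgeR FDR = 0.00363), and kept its call in 5 of 6 leave-one-out fits. fthl27 had 144, 113 and 129 CPM in LWS2 libraries and 30.6, 37.5 and 54.6 CPM in LWS1 libraries (log2 fold change 1.69, SE 0.283, edgeR FDR = 0.0198). fthl28 had 39.2, 27.1 and 42.4 CPM in LWS2 libraries and 5.56, 2.2 and 1.88 CPM in LWS1 libraries (log2 fold change 3.32, SE 0.541, edgeR FDR = 0.0173, and 4.08 without LWS1 replicate 1). These 3 heavy-chain-like genes were all clear of overlap between the groups. A ferritin middle subunit-like feature, LOC100006428, had 33.0, 25.1 and 36.3 CPM in LWS2 libraries and a single count in LWS1 libraries, a ratio of pooled counts of 90.3 (95% exact interval 16.1 to 3577).

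The difference was uneven among ferritins. fth1a had a log2 fold change of 0.31 (edgeR FDR = 0.51), and the feature named FTH1 one of 0.12 (edgeR FDR = 0.88), so that 4 of the 6 tested ferritin chains were called higher and the other 2 were not called in either direction. In the list of ferritin and iron genes 5 of 18 tested features were called higher and 0 lower, the median was 0.67, and 14 had a positive log2 fold change. The fifth call, cyb5r1, encodes a cytochrome b5 reductase, which is an electron carrier enzyme and not an iron store. It had 7.58, 9.92 and 13 CPM in LWS2 libraries and no count in LWS1 libraries, at least 2.77-fold higher. Among iron genes named after their values were seen, a pair of features called tfr1b, a transferrin receptor, had log2 fold changes of 2.71 (edgeR FDR = 0.10) and -0.22 (edgeR FDR = 0.89). Ferroportin, slc40a1, had one of -0.26 (edgeR FDR = 0.83).

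NF-kB is held in the cytoplasm by IkB proteins, and its target genes include those of its own inhibitor and of its precursor subunits. nfkb2, which encodes the p100 precursor, had 117, 67.7 and 105 CPM in LWS2 libraries and 3.48, 15.4 and 7.53 CPM in LWS1 libraries (log2 fold change 3.50, SE 0.5, edgeR FDR = 0.0104, and 4.34 without LWS1 replicate 2). nfkbiaa, an IkB alpha gene, had 39.7, 24.5 and 29.4 CPM in LWS2 libraries and 0.695, 4.41 and 1.88 CPM in LWS1 libraries (log2 fold change 3.79, SE 0.659, edgeR FDR = 0.0216, with 3.18 without LWS1 replicate 1 and 4.84 without LWS1 replicate 2). The chemokine cxcl8a had 60.2, 14.9 and 58.5 CPM in LWS2 libraries and 2, 0 and 0 counts in LWS1 libraries, a ratio of pooled counts of 61.6 (95% exact interval 16.9 to 510). In all 3 genes LWS2 replicate 2 was the lowest of its group, and for cxcl8a it was well below the other LWS2 libraries while still above every LWS1 library.

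birc2, a ubiquitin ligase that regulates NF-kB and cell death, had 68.2, 42.0 and 57.9 CPM in LWS2 libraries and 12.5, 17.6 and 16.9 CPM in LWS1 libraries (log2 fold change 1.85, edgeR FDR = 0.0366). This feature (ENSDARG00000117094) has a second one of the same name, ENSDARG00000044619, with a log2 fold change of 0.25 (edgeR FDR = 0.67), so reads may be split between the copies. tbk1, a kinase that phosphorylates autophagy receptors and acts in innate immune signalling, had 79.8, 72.4 and 76.8 CPM in LWS2 libraries and 31.3, 26.4 and 18.8 CPM in LWS1 libraries (log2 fold change 1.54, edgeR FDR = 0.0346). Over a set of NF-kB pathway genes drawn up after these calls were known, 5 of 14 tested features were called higher and 0 lower, 13 of 14 had a positive log2 fold change, and the median was 1.08. That set contains the 5 calls by construction.

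The stress-induced transcription factor genes ddit3, atf5a and jun were called higher in LWS2 cones. ddit3 encodes CHOP, a factor induced by the integrated stress response, and atf5a a related factor of the ATF4 family. ddit3 had 72.7, 39.7 and 61.5 CPM in LWS2 libraries and 15.3, 7.71 and 5.64 CPM in LWS1 libraries (log2 fold change 2.49, SE 0.453, edgeR FDR = 0.0254). atf5a had 70.9, 34.1 and 43.2 CPM in LWS2 libraries and 9.04, 6.61 and 1.88 CPM in LWS1 libraries (log2 fold change 2.92, SE 0.527, edgeR FDR = 0.0254). Both genes separated the groups in every library. atf4a, the gene of the factor that acts above them, is named after its value was seen, with a log2 fold change of 0.57 (edgeR FDR = 0.12). In the list of the integrated stress response, 2 of 27 tested features were called higher and 0 lower, with a median of 0.37. Of 42 heat shock and chaperone genes tested, 1 was called higher, the immunophilin FKBP3 at a log2 fold change of 1.90 (edgeR FDR = 0.0495), and 0 were called lower.

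jun, a subunit of the AP-1 factor, had 171, 99.5 and 148 CPM in LWS2 libraries and 12.5, 19.8 and 47.0 CPM in LWS1 libraries (log2 fold change 2.51, SE 0.450, edgeR FDR = 0.0254, and 3.15 without LWS1 replicate 3). The list of AP-1 and immediate-early genes, which dissociation of tissue can induce, held 23 tested features, of which jun and cxcl8a were called higher and 0 were called lower. Its median log2 fold change was 0.01, with 12 positive and 11 negative values. Summed over its 37 features, the list took 1422 to 1566 CPM in LWS2 libraries and 1465 to 1742 CPM in LWS1 libraries. jun differed between the groups while the summed level of the list overlapped between them. Such a sum can rest on a few abundant genes, and the part of dissociation in the jun values was not tested.

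**Figure D3:**
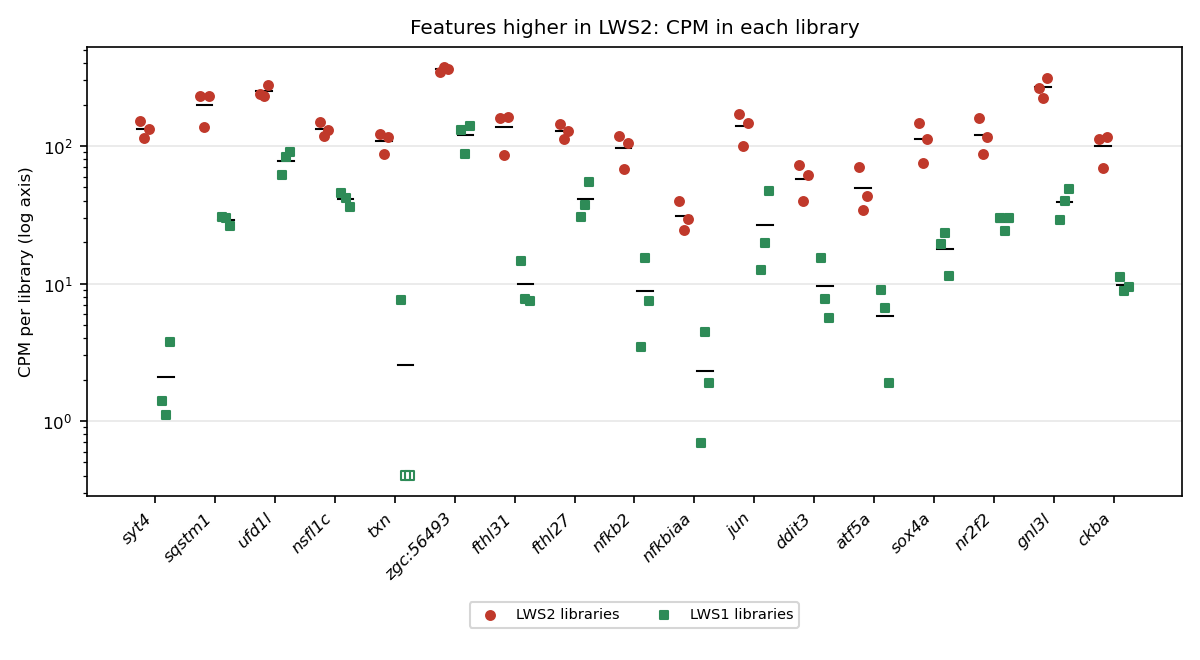
CPM in each LWS2 library (red circles) and each LWS1 library (green squares) for features called higher in LWS2 cones, on a log axis, with group means as bars; open squares at the foot of the axis are libraries without a count. For every feature drawn, the 3 LWS2 libraries lie above the 3 LWS1 libraries.

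Among the called features, 3 were grouped under cell survival and death, all of them higher in LWS2 cones. The group holds called features only, so it does not describe the direction of such genes as a set. phlda3, whose product restrains Akt, had 66.5, 20.7 and 63.2 CPM in LWS2 libraries and no count in any LWS1 library, a level at least 13.6-fold higher. rps27l, a paralog of a ribosomal protein, had 70.0, 26.3 and 52.7 CPM in LWS2 libraries and 4.87, 1.1 and 0 CPM in LWS1 libraries (log2 fold change 4.24, SE 0.719, edgeR FDR = 0.0201, and 6.05 without LWS1 replicate 1). aifm4, a member of the apoptosis-inducing factor family, had 15.2, 9.34 and 8.87 CPM in LWS2 libraries and no count in LWS1 libraries, at least 3.02-fold higher. For phlda3 and rps27l, LWS2 replicate 2 had less than 0.5 of the level of the other LWS2 libraries.

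LWS2 replicate 2 was the lowest LWS2 library for 54 of the 75 features higher in LWS2 cones, replicate 1 for 13 and replicate 3 for 8. This tally was not made over all features tested, so whether it is particular to the 75 cannot be said. In 7 of them, phlda3, cxcl8a, sst1.1, mych, sox11b, myom2a and rps27l, it had less than 0.5 of the lower of the other LWS2 values. It still lay above all LWS1 libraries in each case.

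Transcription factors differed in both directions. In a list of 147 features of transcription factors and cofactors, 87 were tested, 7 were called higher and 3 lower in LWS2 cones. The list median was -0.49, with 29 positive and 58 negative log2 fold changes, and at an unadjusted p under 0.05 there were 11 higher and 26 lower. sox4a, an HMG-box factor of neuronal differentiation, had 147, 75.6 and 113 CPM in LWS2 libraries and 19.5, 23.13 and 11.3 CPM in LWS1 libraries (log2 fold change 2.58, SE 0.367, edgeR FDR = 0.0104). nr2f2, an orphan nuclear receptor (COUP-TFII), had 159, 87.2 and 117 CPM in LWS2 libraries and 29.9, 24.2 and 30.1 CPM in LWS1 libraries (log2 fold change 2.1, SE 0.308, edgeR FDR = 0.0109). Each kept its call in 4 of 6 leave-one-out fits.

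sox11b, of the same SoxC family as sox4a, had 113, 9.63 and 67.6 CPM in LWS2 libraries and 2.78, 2.2 and 1.88 CPM in LWS1 libraries (log2 fold change 4.69, SE 0.937, edgeR FDR = 0.0394, and 4.0 without LWS2 replicate 1). The spread among LWS2 libraries was wide, and its lowest value belonged to replicate 2. mych, a Myc family gene, had 82.1, 9.92 and 39.9 CPM in LWS2 libraries and 3 counts over the LWS1 libraries, a ratio of pooled counts of 37.4 (95% exact interval 12.7 to 182). arid3b and stox2a had log2 fold changes of 1.96 and 2.26. Another called feature in the list, lmna, encodes the nuclear lamins A and C, which are structural proteins and not transcription factors. It had 29.4, 24.2 and 18.3 CPM in LWS2 libraries and a single count in LWS1 libraries, a ratio of pooled counts of 66.7 (95% exact interval 11.8 to 2646). A second gene of the nuclear envelope, si:dkey-92f12.2, which the name table gives as SUN2, had 78.5, 99.2 and 63.8 CPM in LWS2 and 34.1, 15.4 and 13.2 CPM in LWS1 libraries (log2 fold change 1.87, edgeR FDR = 0.0482, and 2.47 without LWS1 replicate 1).

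Lower in LWS2 cones were six6b, a homeobox gene of the developing eye, and the zinc finger gene znf395a. six6b had 31.7, 32.7 and 26.6 CPM in LWS2 libraries and 60.5, 99.1 and 79.0 CPM in LWS1 libraries (log2 fold change -1.39, SE 0.298, edgeR FDR = 0.0495). znf395a had 1.34, 4.67 and 3.88 CPM in LWS2 libraries and 26.4, 49.6 and 39.5 CPM in LWS1 libraries (log2 fold change -3.47, SE 0.559). irf2bp2b, a corepressor, had 83.0, 49.0 and 61.3 CPM in LWS2 libraries and 228, 163 and 122 CPM in LWS1 libraries (log2 fold change -1.43, edgeR FDR = 0.0457). The groups did not overlap for any of them. The teashirt gene tshz3a, which is outside the list, had a log2 fold change of -1.38. The paralog six6a was also negative, at -2.55, and was not called (edgeR FDR = 0.074).

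All 13 protein-coding genes of the mitochondrial genome, which encode subunits of respiratory complexes I, III and IV and of ATP synthase, had lower levels in LWS2 libraries, and 11 were called lower. COX1, a catalytic subunit of cytochrome c oxidase, had 35987, 36925 and 34843 CPM in LWS2 libraries and 57298, 112719 and 117066 CPM in LWS1 libraries (log2 fold change -1.41, SE 0.240, edgeR FDR = 0.0201). CYTB, of complex III, had 12013, 12606 and 12263 CPM in LWS2 libraries and 19411, 36763 and 37101 CPM in LWS1 libraries (log2 fold change -1.34, SE 0.229, edgeR FDR = 0.0205). ND4, of complex I, had 7043, 8242 and 8123 CPM in LWS2 libraries and 13254, 22949 and 19900 CPM in LWS1 libraries (log2 fold change -1.26, SE 0.202, edgeR FDR = 0.0163). LWS2 libraries were tightly grouped, while LWS1 replicate 1 lay between them and the other LWS1 libraries.

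That order held for all 11 called mitochondrial genes, in each of which LWS1 replicate 1 was the lowest LWS1 library. The gene with the largest change was ND6, with 43.7, 41.7 and 37.7 CPM in LWS2 libraries and 87.6, 160 and 301 CPM in LWS1 libraries (log2 fold change -2.13). The uncalled pair were ATP6 (-1.22, edgeR FDR = 0.062) and ATP8 (-1.28, edgeR FDR = 0.12). Together the 13 genes took 12.9% to 13.8% of the counts of LWS2 libraries and 18.9% to 29.7% of those of LWS1 libraries. In cells sorted from another line, thrb2tdTomato, they took 53.4% to 54.3% in tdTomato- and 21.98% to 71.7% in tdTomato+ libraries. Among LWS1 libraries, this share and the rod and Muller glia marker sums were lowest in replicate 1 and highest in replicate 2. Among LWS2 libraries, the share was highest in replicate 3 and both sums in replicate 2. The part of other retinal cells in these values was not tested. Because CPM is a share of a total, the comparison was repeated without the 13 genes. It then called 65 features higher and 32 lower in LWS2 cones, all of them among the 75 and 49, and the median of all features was -0.03. The 11 called mitochondrial genes, part of the 49, were not in that fit and could not be among the 32.

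Nuclear genes of the same respiratory complexes had positive values for the most part. Of 91 tested features of the nuclear-encoded respiratory chain and ATP synthase, 1 was called higher, the complex I subunit ndufs4 (187, 227 and 197 CPM in LWS2 libraries, 93.2, 89.2 and 109 CPM in LWS1 libraries, log2 fold change 1.07, edgeR FDR = 0.0338), and 0 were called lower. Their median log2 fold change was 0.22, with 78 of 91 positive, against 48.7% of all features tested, and 70 of 91 under DESeq2's size factors. Of 80 cytosolic ribosomal protein features, 70 were positive (66 under those size factors), the median was 0.24, and rps27l was the one call. Of 73 mitochondrial ribosomal protein features 0 were called by edgeR, while 7 were higher and 0 lower at an unadjusted p under 0.05, and 0 were called by DESeq2. At that p, 606 of all 8432 features tested were higher and 622 lower. These families were drawn from gene names after the calls were seen.

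Phototransduction genes differed in both directions, with 2 of 37 tested features called higher and 3 lower, a median of -0.34 and 27 negative values. gngt2a, the gamma subunit of cone transducin, is listed as 2 features whose reads may have been shared between them, so each value is uncertain. ENSDARG00000010680 had 2540, 1901 and 1939 CPM in LWS2 libraries and 5880, 5868 and 6473 CPM in LWS1 libraries (log2 fold change -1.51), and ENSDARG00000110351 had 627, 404 and 541 CPM in LWS2 libraries and 1678, 1130 and 2177 CPM in LWS1 libraries (-1.66). Both copies were lower in LWS2 cones, without overlap. guca1c, a calcium-binding activator of guanylate cyclase in cones, had 1745, 2335 and 1938 CPM in LWS2 libraries and 3497, 4335 and 6047 CPM in LWS1 libraries (log2 fold change -1.2, SE 0.217, edgeR FDR = 0.0254).

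In the other direction, LOC562466, a channel gene of the cone CNGB3 type, had 221, 293 and 205 CPM in LWS2 libraries and 73.0, 76.0 and 115 CPM in LWS1 libraries, and the calmodulin gene calm1b had 192, 130 and 179 CPM in LWS2 libraries and 48.7, 70.5 and 58.3 CPM in LWS1 libraries. Their log2 fold changes were 1.47 and 1.5. The paralog of gngt2a, gngt2b, stood at 0.98 on the log2 scale (SE 0.185, edgeR FDR = 0.0307), just inside the fold-change limit, so it was not called. Cone arrestin arr3a, at -0.87 (edgeR FDR = 0.0421), and the cone opsin kinase grk1b, at 0.92 (edgeR FDR = 0.0495), also passed the FDR and not the fold-change threshold. Named after their values were seen, GNAT2 had a log2 fold change of -0.34 (edgeR FDR = 0.38) and PDE6C, the cone phosphodiesterase, one of -0.15 (edgeR FDR = 0.67). kcnv2b, a subunit of the photoreceptor potassium channel, is listed as 2 features. The copy ENSDARG00000110270 was called lower (128, 85.2 and 132 CPM in LWS2 libraries, 227, 230 and 288 CPM in LWS1 libraries, log2 fold change -1.11), while ENSDARG00000113755 had 1.55 (edgeR FDR = 0.11), so the direction of the gene as a whole is uncertain.

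Enzymes of energy metabolism were called in both directions, 1 higher and 3 lower among 51 tested features of a list with a median of -0.46. aldoaa, an aldolase of glycolysis, had 120, 116 and 109 CPM in LWS2 libraries and 228, 314 and 418 CPM in LWS1 libraries (log2 fold change -1.47, SE 0.242, edgeR FDR = 0.0177). Lactate dehydrogenase ldha had 194, 153 and 214 CPM in LWS2 libraries and 332, 476 and 469 CPM in LWS1 libraries (log2 fold change -1.18, SE 0.219, edgeR FDR = 0.0275). Both enzymes fell in LWS2 cones. Creatine kinases buffer ATP with phosphocreatine, and single features of the mitochondrial and cytosolic kinds were called in opposite directions.

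The mitochondrial creatine kinase ckmt2b had 116, 73.2 and 114 CPM in LWS2 libraries and 207, 250 and 356 CPM in LWS1 libraries (log2 fold change -1.41, SE 0.274, edgeR FDR = 0.0351). The cytosolic ckba had 111, 69.7 and 116 CPM in LWS2 libraries and 11.1, 8.81 and 9.41 CPM in LWS1 libraries (log2 fold change 3.31, SE 0.353, edgeR FDR = 0.00363) and kept its call in 5 of 6 leave-one-out fits. Their paralogs were not called, with log2 fold changes of -0.48 for CKB (edgeR FDR = 0.26) and 0.01 for CKMT2 (edgeR FDR = 0.99). CKB had 18296 to 66695 counts per library, against 5 to 420 for ckba, and CKMT2 had 1832 to 12158 counts. The calls of ckmt2b and ckba thus do not describe either kind of creatine kinase as a whole. Ornithine decarboxylase odc1, which starts polyamine synthesis, had 111, 86.4 and 104 CPM in LWS2 libraries and 195, 251 and 235 CPM in LWS1 libraries (log2 fold change -1.17, edgeR FDR = 0.0254). Its antizyme oaz2b had 44.6, 68.6 and 48.2 CPM in LWS2 libraries and 156, 165 and 118.5 CPM in LWS1 libraries (log2 fold change -1.45, edgeR FDR = 0.0254).

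Among smaller metabolic calls, qdpra, which regenerates tetrahydrobiopterin, had 33.0, 46.1 and 48.8 CPM in LWS2 libraries and 4.17, 4.41 and 0 CPM in LWS1 libraries (log2 fold change 3.67). impdh2, the rate-limiting enzyme of guanine nucleotide synthesis, had a log2 fold change of 2.18, and the fatty acid elongase elovl8a one of 1.34. The lipid hydrolase abhd12 was lower in LWS2 cones, at -1.48.

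**Figure D4:**
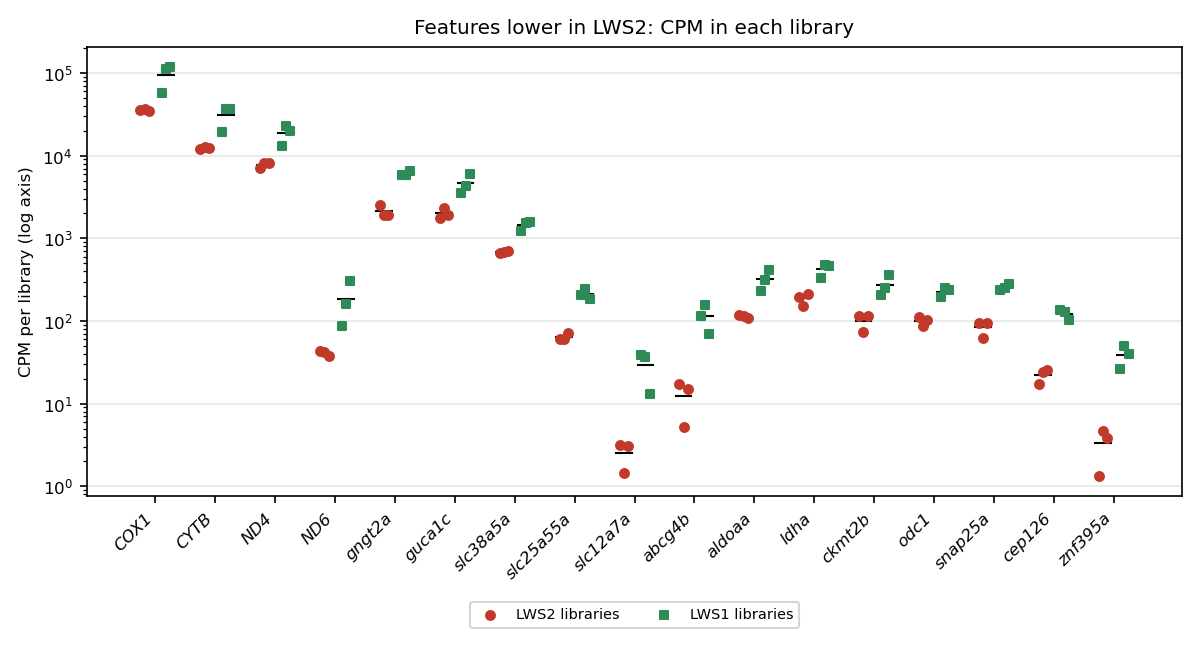
CPM in each LWS2 library (red circles) and each LWS1 library (green squares) for features called lower in LWS2 cones, on a log axis, with group means as bars; gngt2a is the copy ENSDARG00000010680. For COX1 the LWS2 libraries lie between 34843 and 36925 CPM and the LWS1 libraries between 57298 and 117066 CPM.

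Of 130 tested solute carriers, 4 were called lower in LWS2 cones and 1 higher, with a median of -0.19. slc12a7a, a potassium-chloride cotransporter, had 3.12, 1.46 and 3.05 CPM in LWS2 libraries and 38.9, 36.4 and 13.2 CPM in LWS1 libraries (log2 fold change -3.55). slc38a5a, an amino acid transporter, had 662, 682 and 712 CPM in LWS2 libraries and 1223, 1549 and 1588 CPM in LWS1 libraries (log2 fold change -1.08, SE 0.166, edgeR FDR = 0.0135). slc25a55a had 60.2, 61.3 and 72.1 CPM in LWS2 libraries and 204, 243 and 184 CPM in LWS1 libraries (log2 fold change -1.71, SE 0.217, edgeR FDR = 0.00751), and slc25a18 had 41.0, 46.1 and 62.7 CPM in LWS2 libraries and 101, 144 and 167 CPM in LWS1 libraries (-1.45), both of the mitochondrial carrier family. The Muller glia markers, whose sums given above overlap between the groups, include the glutamate transporter slc1a2a, which, named after its value was seen, had a log2 fold change of -0.99 (edgeR FDR = 0.0201), and 15 of 17 of them were negative with a median of -0.73. Their part in these transporter values was not tested.

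abcg4b, a sterol transporter of the ABC family, had 17.4, 5.25 and 15.0 CPM in LWS2 libraries and 115, 156 and 69.6 CPM in LWS1 libraries (log2 fold change -3.20, SE 0.474, edgeR FDR = 0.0112). The solute carrier in the other direction was slc4a2a, an anion exchanger, with 35.7, 26.0 and 38.3 CPM in LWS2 libraries and 2 counts over the LWS1 libraries, a ratio of pooled counts of 47.6 (95% exact interval 13.1 to 395). mfsd2ab, of a family that carries lysophospholipids with omega-3 fatty acids, had a log2 fold change of 2.19. osbp2, a sterol-binding protein, had 1 count over the LWS1 libraries, and a second osbp2 feature, ENSDARG00000053487, was also positive (2.34) and not called (edgeR FDR = 0.11).

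syt4 had the smallest adjusted p of all features. It encodes synaptotagmin IV, a vesicle protein that lacks the calcium dependence of the fast synaptotagmins. It had 151, 114 and 134 CPM in LWS2 libraries and 1.39, 1.1 and 3.76 CPM in LWS1 libraries, from 2, 1 and 2 counts (log2 fold change 6.18, SE 0.428, edgeR FDR = 0.00051). Left-out libraries moved this value between 5.93 and 6.66. snap25a, a SNARE protein of vesicle fusion, went the other way, with 95, 62.2 and 93.7 CPM in LWS2 libraries and 236, 251 and 278 CPM in LWS1 libraries (log2 fold change -1.61, SE 0.231, edgeR FDR = 0.0104), while its paralog feature SNAP25 was at -0.02 (edgeR FDR = 0.97).

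Of 45 tested features of synapse and vesicle release, 2 were called higher and 1 lower, 33 were negative, and the median was -0.40. The second called higher was rab39bb, a Rab GTPase, with 40.1, 27.7 and 36.9 CPM in LWS2 libraries and 1.39, 3.30 and 3.76 CPM in LWS1 libraries (log2 fold change 3.74, SE 0.551, edgeR FDR = 0.0111). Other called features with a role in membrane traffic or axonal transport, grouped after the calls were seen, were in both directions. arf3a, a GTPase of the Golgi, had a log2 fold change of 2.60 and huntingtin, htt, one of 1.75. mapk8ip3, a JNK scaffold that links kinesin to its cargo, had 69.6, 56.0 and 54.6 CPM in LWS2 libraries and 13.2, 9.91 and 9.41 CPM in LWS1 libraries (log2 fold change 2.43, SE 0.353, edgeR FDR = 0.0109). rab11fip4a, a Rab11 effector, was lower, at -1.31. In the list of cilium and microtubule genes mapk8ip3 was the one of 66 called higher and cep126 the one called lower. Over all features tested, 1.2% were called higher and 0.605% lower. cep126, a centrosomal protein, had 17.4, 23.9 and 25.5 CPM in LWS2 libraries and 136, 129 and 102 CPM in LWS1 libraries (log2 fold change -2.45, SE 0.278, edgeR FDR = 0.00392).

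Genes of ribosome assembly and RNA handling were called mainly higher. gnl3l, a nucleolar GTPase, had 265, 223 and 314 CPM in LWS2 libraries and 29.2, 39.7 and 48.9 CPM in LWS1 libraries (log2 fold change 2.80, SE 0.266, edgeR FDR = 0.00363). The poly(A)-binding protein pabpc1a had 1210, 1155 and 930 CPM in LWS2 libraries and 575, 519 and 350 CPM in LWS1 libraries (log2 fold change 1.18, SE 0.216, edgeR FDR = 0.0254). utp6, of the small subunit processome, had 8.03, 8.75 and 11.6 CPM in LWS2 libraries and no count in LWS1 libraries, at least 2.58-fold higher. In this list 4 of 62 tested features were called higher and 1 lower, with a median of 0.57 and 52 positive values.

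The fourth call and the one lower were 2 features of the same gene. rsl1d1 is listed as ENSDARG00000055868, with 27.2, 20.4 and 27.7 CPM in LWS2 libraries and no count in LWS1 libraries (at least 6.83-fold higher), and as ENSDARG00000115696, with no count in LWS2 libraries and 12.5, 15.4 and 22.6 CPM in LWS1 libraries (at least 16.6-fold lower). Each group of libraries thus had counts on one copy alone, and the level of rsl1d1 as a gene is uncertain. pcbp4, an RNA-binding protein, had 51.7, 68.0 and 63.5 CPM in LWS2 libraries and 178, 207 and 198 CPM in LWS1 libraries (log2 fold change -1.66, SE 0.218, edgeR FDR = 0.00855).

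Secreted, matrix and signalling genes were called in both directions. Apelin, apln, a peptide ligand, had 97.2, 134 and 122 CPM in LWS2 libraries and 22.9, 38.6 and 54.6 CPM in LWS1 libraries (log2 fold change 1.66). Perlecan, hspg2, had 69.6, 136 and 104 CPM in LWS2 libraries and 13.2, 1.1 and 9.41 CPM in LWS1 libraries (3.64, and 4.54 without LWS1 replicate 1), and matrix Gla protein, mgp, had a log2 fold change of 3.42 (2.78 without LWS2 replicate 3). The kinase gene pik3cb and somatostatin sst1.1 had 2 counts and 1 count over the LWS1 libraries. Lower values in LWS2 cones were those of the anchoring protein akap13 (-1.65), the arrestin-domain gene arrdc3a (-1.17), the kinase taok2a (-1.08) and the phosphatase ptp4a3b (-1.0).

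The remaining 16 features had no function assigned. tex9 had 87.9, 68.9 and 78.5 CPM in LWS2 libraries and 9.04, 5.51 and 3.76 CPM in LWS1 libraries (log2 fold change 3.56, SE 0.390, edgeR FDR = 0.00363). si:dkey-34l15.1 had 22.7, 13.7 and 17.7 CPM in LWS2 libraries and no count in LWS1 libraries, at least 4.91-fold higher. tmem170a was among the largest falls with a symbol, at -3.05, with 4.46, 3.50 and 6.38 CPM in LWS2 libraries and 13.9, 62.8 and 45.2 CPM in LWS1 libraries.

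**Figure D5:**
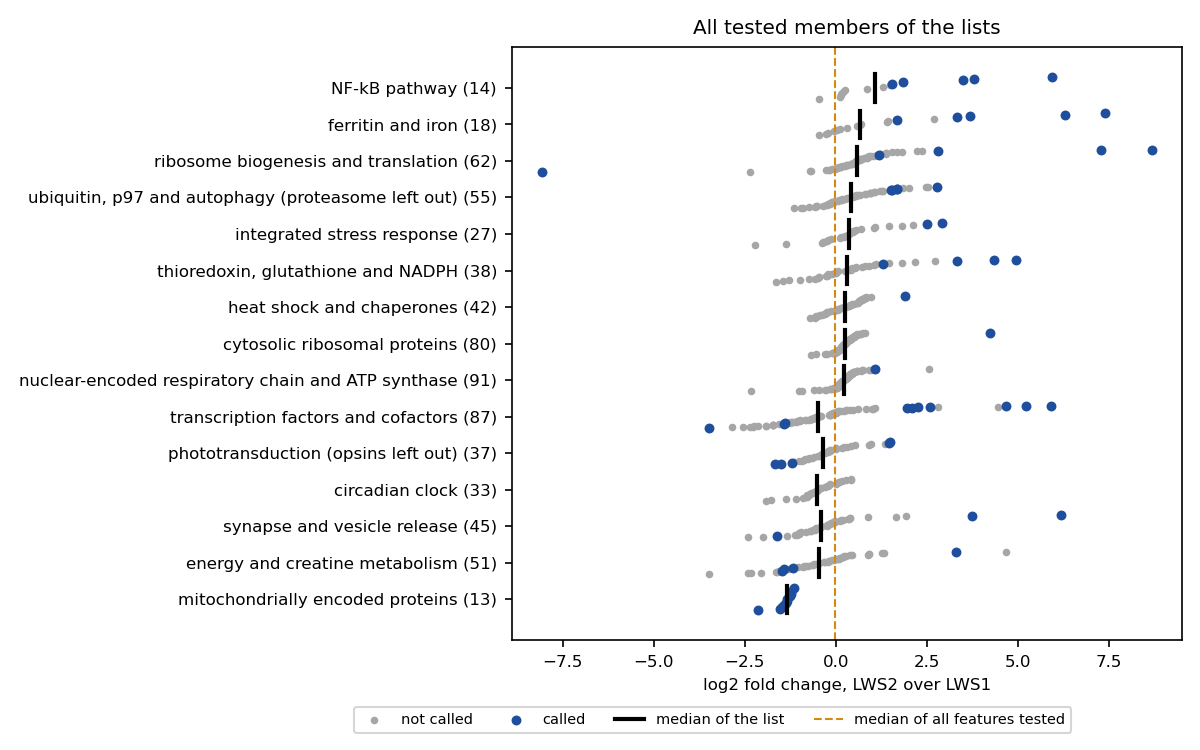
Log2 fold change (LWS2 over LWS1) of every tested member of 15 lists and families, with called members in blue, the list median as a black bar and the median of all features tested as a dashed line. The NF-kB pathway has a median of 1.08 and the mitochondrially encoded proteins one of -1.34, against -0.02 for all features.

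Clock genes had mostly negative values, without a call in the fit reported. Of 33 tested circadian features, 0 were called by edgeR in either direction, and 10 were lower and 0 higher at an unadjusted p under 0.05. Other fits did call some lower: 2 with DESeq2, 2 with the replicate block, 2 without the filter and 3 without LWS1 replicate 2. Their median log2 fold change was -0.51, with 25 of 33 negative. Named after their values were seen, cry3b, a cryptochrome, had -1.77 (edgeR FDR = 0.062) and per3, a period gene, -0.73 (edgeR FDR = 0.08). With DESeq2 at the same thresholds, the paper lists per1b, cry1bb and per3 as enriched in LWS1 cones. None of these was among the features called in the fit reported, and values of per1b and cry1bb are not given here.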

How the data were processed

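Bulk RNA-Seq libraries of sorted adult zebrafish cones were compared, 3 LWS2 and 3 LWS1, of the 12 in the series. Per the study's methods, Trimmomatic, STAR, Salmon and tximport were used with GRCz11. The authors deposited raw counts, in whole numbers, of 30258 Ensembl features. Which aligner gave the counts is not given in the sources used here. The submitters' processing notes name Trimmomatic 0.36, FastQC 0.11.5 and Salmon 0.13.1. Of the features, 1010 were named from the text columns of the authors' comparison tables, 22639 from an Ensembl name table that often drops the paralog letter, and 6609 had no name. Those tables hold the authors' own DESeq2 fold changes and p-values, which were not used, nor were their 12 columns of per-sample values.

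After the filterByExpr filter and TMM scaling, the quasi-likelihood test of edgeR 4.0.16 (R 4.3.3) was run with Benjamini-Hochberg adjustment over all 8432 features kept, on the 6 libraries without a block. Calls needed an FDR under 0.05 and an absolute log2 fold change above 1. The SE of a log2 fold change was derived from the test statistic. CPM values are counts scaled to TMM library sizes, so levels are not corrected for gene length. The common biological coefficient of variation was 0.381. Pairs of replicates differed by more than sampling noise (chi-square per degree of freedom 6.24 to 14.8), so each library counted as 1 sample.

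Where a group had no count, a fold is a lower bound against 3 counts per library. Where a group had 1 to 3 counts, the ratio of pooled counts is given with an exact 95% interval. No molecular identifiers are mentioned for these libraries, so floors and intervals cover counting error only. The named features were the called members of each list, with library values for those of smallest p, the 5 largest changes in each direction with a symbol, and other called features by function. Uncalled genes were to be named where a paralog was called or the study names them. Some other uncalled genes, among them vcp, atf4a, tfr1b, slc40a1, slc1a2a, grk1b, cry3b and marker genes, were named outside that rule, after their values were seen. The members, lists and groups were chosen with earlier results of these data known, and families by name pattern were added after the calls were seen. Alternatives were DESeq2 1.42.0, its size factors within edgeR, no filter on low counts, a replicate block, all 4 groups in one fit, mitochondrial genes or proteasome subunits left out, and each library left out. The placement of tdTomato+ libraries was repeated without mitochondrial genes and without replicate 2, a choice made after seeing the data. The edgeR and DESeq2 tests were also run on simulated counts with known changes. Lists were matched to features by symbol, first exactly and then without the paralog letter. Promoter motifs were not analysed here, and 1 gene and the count of the list that holds it are not reported here. Computation also used Python 3.11.15 with pandas 2.3.3, scipy 1.17.1 and matplotlib 3.10.9.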

Additional observations from a re-analysis of the deposited data

How the results depend on the processing

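With 75 features higher and 49 lower in LWS2 cones as the values reported, DESeq2 gave 143 and 173, of which 75 and 49 were among them, and edgeR without the filter on low counts gave 221 and 408, of which 75 and 45 were. Both of these fits took in 21109 features, against 8432 in the fit reported. Their counts are thus over a larger set and cannot be compared directly with 75 and 49. A fit of all 4 groups together gave 16 and 0. Without mitochondrially encoded features, 11 of which were among the 49, the numbers were 65 and 32. They were 54 and 36 without proteasome subunits, and 64 and 52 with DESeq2's size factors. Each library left out in turn gave 1 to 68 higher and 0 to 76 lower. The cause of these changes was not tested, except that such fits have fewer libraries. With the replicate number as a block 87 were higher and 75 lower, of which 63 and 48 were among those reported. Deviations from the group means correlated at 0.17, 0.15 and -0.00 between libraries of the same number, not over 0.1 in every pair, so the numbers were not taken to pair the libraries, and replicate 3 of LWS2 did not correlate best with its own number. The paper's sorting report shows gates for both cone types on the same sample, so libraries of the same number may share a sort. Between LWS2 replicate 2 and LWS1 replicate 1 the deviations correlated at -0.20, and between LWS2 replicate 1 and LWS1 replicate 2 at -0.12. The summed rod markers, and the summed Muller glia markers, were lowest in replicate 1 and highest in replicate 2 of both groups. A pairing by sort was not tested beyond these values, and the calls reported, made without a block, do not allow for one. The share of calls that were higher was 60.5%, 45.3% with DESeq2, 35.1% without the filter and 53.7% with the block. Without the filter the median of all features was 0.22, and it stayed between -0.09 and 0.05 in the other fits of all 6 libraries. Depth limits what can be said of low genes: 26 of the 75 features higher in LWS2 cones had 3 counts or fewer in every LWS1 library, 8 of them none in any.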

Other observations

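The tdTomato+ libraries of the series, 3 libraries of cones sorted from another line, labelled thrb2tdTomato, allow the 124 features to be placed beside another population. The paper describes tdTomato in that line as present in all adult LWS cones, thus of both types. The line, the fluorescent protein and the cone types sorted cannot be told apart in this comparison, and levels are in CPM over non-mitochondrial counts, normalized over all 12 libraries. For the 75 features higher in LWS2 cones, the mean log2 level in tdTomato+ libraries was nearer to that of LWS2 cones in 19 and nearer to that of LWS1 cones in 56. For the 49 lower in LWS2 cones, it was nearer to LWS2 cones in 28 and to LWS1 cones in 21, and 11 of those 21 were the mitochondrially encoded genes, so that without them the tally was 28 and 10 of 38. The tdTomato+ mean lay between those of LWS2 and LWS1 cones in 47 of the 75 and in 25 of the 49. The 124 were chosen for their difference between LWS2 and LWS1 cones, and no such tally was made over all features tested. A share to set beside these numbers is therefore lacking. Mitochondrially encoded genes took 21.98%, 71.7% and 41.2% of the counts of tdTomato+ replicates 1, 2 and 3, and replicate 2 thus stood apart. Without replicate 2, a choice made after seeing the data, 14 of the 75 were nearer to LWS2 cones and 61 to LWS1 cones, and of the 38 non-mitochondrial features lower in LWS2 cones 31 were nearer to LWS2 cones and 7 to LWS1 cones. The distance was taken on log2(CPM + 0.5).

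The 4 genes that follow were chosen after their values were seen. zgc:56493 had 424, 445 and 441 CPM in LWS2 libraries, 168, 152 and 71.0 CPM in tdTomato+ libraries and 162, 105 and 174 CPM in LWS1 libraries, and sqstm1 had 281, 163 and 283 CPM in LWS2 libraries, 58.3, 41.3 and 30.1 CPM in tdTomato+ libraries and 37.8, 35.5 and 32.8 CPM in LWS1 libraries. In both the tdTomato+ values lay near or within those of LWS1 cones. nr2f2 was in between, with 194, 104 and 143 CPM in LWS2 libraries, 98.1, 55.1 and 64.0 CPM in tdTomato+ libraries and 36.9, 28.9 and 37.5 CPM in LWS1 libraries. No count of phlda3 was seen in a tdTomato+ library.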
